A study of Mus musculus with 3 samples.

Results

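The neutrophil maturation and granule genes are a set of 36 mouse genes that mark successive steps of neutrophil development, chosen by symbol. They fall into 6 genes of primary granules and of the promyelocytes that make them, 4 genes of the C/EBP transcription factors, 9 genes of secondary and gelatinase granules, and 17 genes of mature neutrophils. A probe carrying a RefSeq transcript of the gene was found for 35 of the 36. Ly6g, a surface marker of neutrophils, had none and was not analysed here. All 35 were well above the array's background on at least 1 array and entered the comparison, among 15240 such genes in all, and 34 were well above background on all 3 arrays. Cd177 was the exception, being above background in the LSD1 × p53+/− tumours only.

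Expression was measured on 1 Agilent 1-colour array per tumour in splenic tumours of 3 male mice aged 10 weeks. The genotype was LSD1 × p53+/− in 2 tumours, labelled #2 and #3 and here called LSD1 tumour 2 and LSD1 tumour 3. It was p53+/− alone in 1 tumour, here called the p53 tumour. All 3 mice were p53+/−, the tissue is labelled a tumour while the growth text speaks of cells isolated from spleens, and no treatment was given. What the LSD1 element is, which promoter drives it and whether the numbers name mice or lines is not given in the sources used here. Kdm1a encodes LSD1, a lysine demethylase of histones and a corepressor that works with the repressor Gfi1 in blood cells.

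Signals are given in units of the array's 75th percentile, so that a signal of 1 equals that percentile. Between 51.5% and 55.6% of spots were well above background on each array and no spot was saturated. LSD1 tumour 3 was hybridised on the same slide as the p53 tumour (slide 1) and LSD1 tumour 2 on another (slide 2). A difference of LSD1 tumour 2 from either other tumour therefore cannot be told apart from a difference between slides. Over all 15240 genes the median log2 difference from the p53 tumour was 0.05 for LSD1 tumour 2 and 0.16 for LSD1 tumour 3, and it was -0.16 and -0.20 with the authors' own scaling. Kdm1a itself had signals of 6.57 and 4.91 in LSD1 tumours 2 and 3, against 4.20 in the p53 tumour. Trp53, which encodes p53, had 0.748 and 0.916, against 1.13. The single p53 array and the number of arrays limit the precision of every value below.

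Neutrophils are made in waves of gene expression. Promyelocytes transcribe the proteases and peroxidase of the primary, or azurophil, granules, myelocytes and metamyelocytes then make the proteins of the secondary granules, and gelatinase, receptors for chemotaxis and the machinery of the oxidative burst follow as the cell matures. C/EBP alpha and C/EBP epsilon, together with the ETS factor PU.1 and the repressor Gfi1, direct these waves. The adult mouse spleen keeps some blood formation in its red pulp, so splenic RNA can hold transcripts of neutrophil precursors and of mature neutrophils.

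The promoters of genes that shared their direction in both LSD1 tumours are shown for 4 primary granule genes and 2 secondary granule genes, as the 250 bases before the start of each gene in RefSeq (build GRCm38.p6), read 5′ to 3′ on the gene's strand. They lie at chr11:87793534-87793783 on the + strand for Mpo, chr10:79886062-79886311 on the + strand for Elane, chr10:79879417-79879666 on the + strand for Prtn3, chr14:56102575-56102824 on the - strand for Ctsg, chr9:110419558-110419807 on the + strand for Ngp and chr9:111019042-111019291 on the + strand for Ltf. Capitals mark AGGAAGT, letters that ETS factors such as PU.1 can bind, and TTGCNNAA, letters that C/EBP factors can bind, each searched on both strands, and the marked letters do not overlap.
Mpo: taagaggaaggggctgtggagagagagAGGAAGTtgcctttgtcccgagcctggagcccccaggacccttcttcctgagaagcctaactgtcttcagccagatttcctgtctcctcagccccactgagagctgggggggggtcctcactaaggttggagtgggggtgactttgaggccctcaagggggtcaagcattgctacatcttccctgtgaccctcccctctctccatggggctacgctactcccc
Elane: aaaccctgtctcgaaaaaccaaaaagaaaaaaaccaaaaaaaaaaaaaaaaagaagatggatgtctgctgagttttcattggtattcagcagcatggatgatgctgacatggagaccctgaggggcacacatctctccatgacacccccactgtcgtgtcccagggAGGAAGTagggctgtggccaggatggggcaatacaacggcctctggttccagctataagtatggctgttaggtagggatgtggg
Prtn3: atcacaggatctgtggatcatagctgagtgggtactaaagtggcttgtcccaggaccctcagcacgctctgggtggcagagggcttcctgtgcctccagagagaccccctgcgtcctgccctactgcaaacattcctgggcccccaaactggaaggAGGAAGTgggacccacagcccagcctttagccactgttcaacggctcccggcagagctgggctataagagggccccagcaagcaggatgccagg
Ctsg: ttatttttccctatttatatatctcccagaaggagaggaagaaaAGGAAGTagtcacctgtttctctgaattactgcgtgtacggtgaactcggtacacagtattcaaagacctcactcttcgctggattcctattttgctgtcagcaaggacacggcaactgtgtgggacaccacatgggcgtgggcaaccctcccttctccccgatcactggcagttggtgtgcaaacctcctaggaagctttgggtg
Ngp: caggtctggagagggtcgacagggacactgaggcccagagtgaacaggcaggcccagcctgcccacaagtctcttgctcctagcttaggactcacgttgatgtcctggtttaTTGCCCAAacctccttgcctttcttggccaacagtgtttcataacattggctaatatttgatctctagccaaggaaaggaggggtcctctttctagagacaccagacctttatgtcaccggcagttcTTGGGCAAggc
Ltf: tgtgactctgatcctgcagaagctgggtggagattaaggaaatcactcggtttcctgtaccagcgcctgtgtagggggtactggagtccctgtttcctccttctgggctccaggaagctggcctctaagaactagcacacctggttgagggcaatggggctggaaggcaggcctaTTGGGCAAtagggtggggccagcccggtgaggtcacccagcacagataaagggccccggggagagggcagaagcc

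Of the 36 genes, 32 matched a promoter window, the others being Cebpe, Cebpd, Mmp9 and Hp. AGGAAGT was present in 5 of 6 windows of primary granule genes (Mpo, Elane, Prtn3, Ctsg and Fcnb), in 1 of 7 of secondary and gelatinase granule genes, in 2 of 17 of mature neutrophil genes and in 0 of 2 of C/EBP genes. All 32851 windows of that length held it in 7.69% of cases. TTGCNNAA was present in 1 of 6, 4 of 7, 4 of 17 and 0 of 2 windows in the same order of groups, and in 9.56% of all windows. The genes of secondary granules that held it were Ngp, Ltf, Lcn2 and Mmp8. These spellings were picked after several had been tried on the same windows, so the shares are a description of letters only.

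Most genes of granule proteins were higher in both LSD1 tumours than in the p53 tumour, while those of mature neutrophils were spread around no difference. By size, 10 of the 35 genes were at least 2-fold higher in both LSD1 tumours, against 3.48% of all genes compared, and 0 were at least 2-fold lower in both, against 5.38%. Of the 12812 genes above background on all arrays, as 34 of the 35 were, 447 were at least 2-fold higher in both and 416 lower. The 10 were 5 primary granule genes (Mpo, Elane, Prtn3, Ctsg and Ms4a3) and 5 secondary granule genes (Ngp, Camp, Ltf, Lcn2 and Mmp8). The count of 10 became 4 with the authors' scaling, the 4 being Mpo, Prtn3, Ctsg and Ms4a3, and over all genes the counts at least 2-fold higher and lower were then 219 and 1266, in place of 531 and 820. Without a size limit, 19 of the 35 lay above the p53 tumour in both, against 38.9% of all genes, and 7 below it in both, against 27.8%. In bulk tissue, a larger number of cells of a type and more RNA per cell cannot be told apart.

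limma's moderated test over all 15240 genes, with 2 arrays against 1 and therefore 1 residual degree of freedom, called none of the 35 genes after Benjamini-Hochberg adjustment (lowest adjusted p = 0.967), and 0% of all genes. At an unadjusted p under 0.05 it listed 4 of the 35, all primary granule genes (Mpo, Prtn3, Ctsg and Ms4a3), and 3.73% of all genes. The differences below are therefore sizes measured in these 3 tumours. A size can be read against the gap between the LSD1 tumours. Both LSD1 tumours were higher and closer to each other than either was to the p53 tumour for 16 of the 35 genes, against 19.1% of all genes, and lower and closer for 1 (Mcemp1), against 14.2%.

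**Figure D1:**
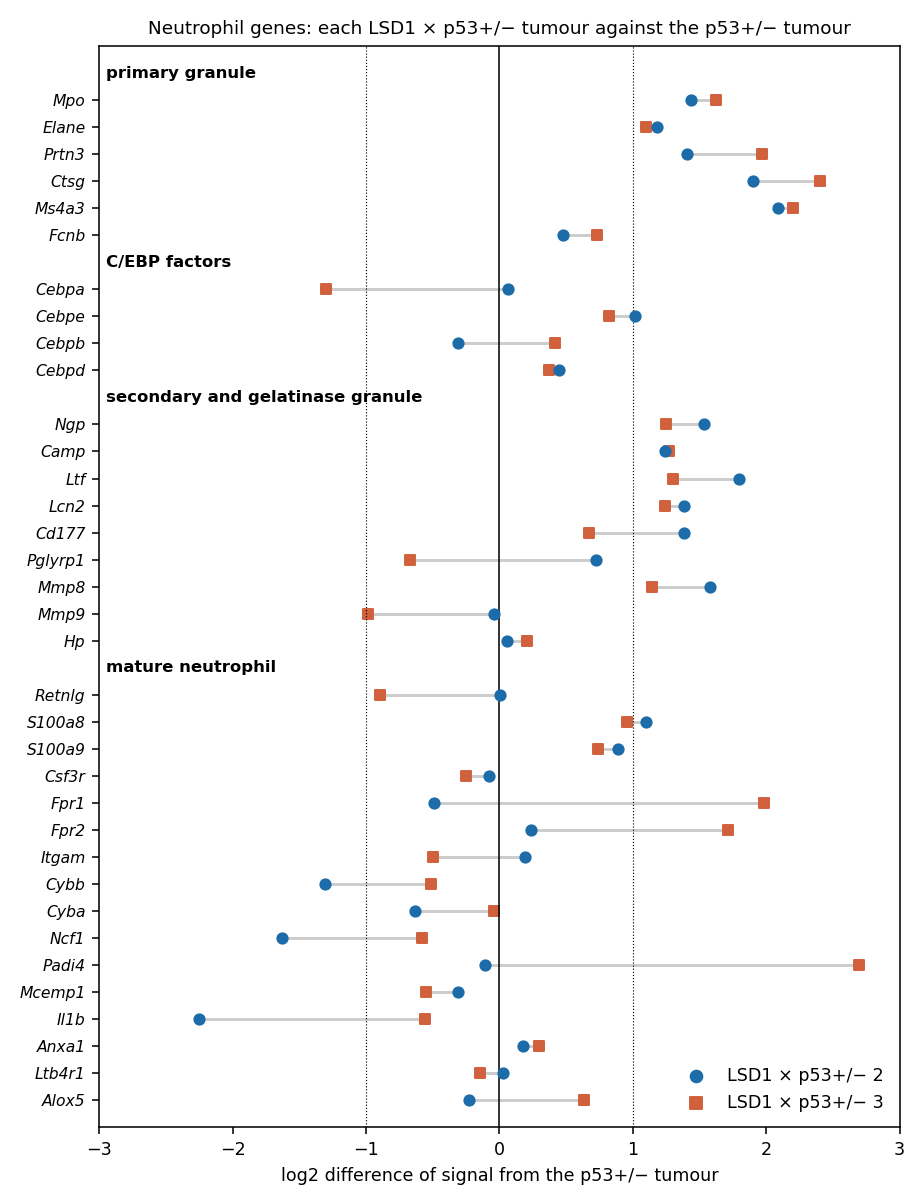
Log2 difference of signal (x axis) of LSD1 × p53+/− tumour 2 (circles) and tumour 3 (squares) from the single p53+/− tumour for the 35 measured neutrophil genes, 1 row per gene and grouped by role, with dotted lines at 2-fold. All 6 primary granule genes lie right of 0 in both tumours, while the mature neutrophil genes lie on both sides and their tumours are further apart.

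All 6 primary granule genes were higher in both LSD1 tumours, with median log2 differences of 1.42 (tumour 2) and 1.80 (tumour 3). For all 6 the LSD1 tumours were closer to each other than to the p53 tumour, with log2 differences of LSD1 tumour 3 from LSD1 tumour 2 between -0.09 and 0.56. All 6 were also higher in both under each of the 6 other ways of scaling, filtering or combining probes. Proliferation genes were likewise higher in both in 13 of 14 cases and mast cell and basophil genes in 5 of the 7 above background on all arrays. Of all 12812 genes above background on all arrays, 5206 were higher in both. The part of these lists in the granule differences was not tested.

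Mpo encodes myeloperoxidase, the haem enzyme that makes hypochlorous acid and the most familiar protein of primary granules. Its signal was 10.4 in LSD1 tumour 2 and 11.9 in LSD1 tumour 3, against 3.84 in the p53 tumour. That is 2.71-fold and 3.09-fold higher, a mean log2 difference of 1.53 ± 0.13 (SD, n = 2). Here and below, this SD holds only the gap between the LSD1 tumours, because both differences use the same p53 array. Mpo carries AGGAAGT in the promoter window printed above, as do Elane, Prtn3 and Ctsg.

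The serine protease genes of the same granule had the same direction. Elane, encoding neutrophil elastase, had signals of 3.09 (LSD1 tumour 2) and 2.91 (LSD1 tumour 3), against 1.36 in the p53 tumour, 2.27-fold and 2.14-fold higher. Prtn3, encoding proteinase 3 and lying beside Elane on chromosome 10, had 0.480 and 0.709, against 0.181, 2.65-fold and 3.92-fold higher. Ctsg, encoding cathepsin G, had the widest separation of these proteases, with 3.58 and 5.08 in the LSD1 tumours, against 0.959 in the p53 tumour. Its mean log2 difference was 2.15 ± 0.36 (SD between the LSD1 tumours, n = 2). Both LSD1 tumours were at least 2-fold above the p53 tumour for each protease. With the authors' scaling the log2 differences of Elane were 0.97 and 0.73, under 2-fold.

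Ms4a3, a membrane protein gene expressed in granulocyte and monocyte progenitors and used as their lineage marker, was 4.25-fold and 4.61-fold higher. Its signals of 0.970 (LSD1 tumour 2) and 1.05 (LSD1 tumour 3) were nearly equal, against 0.228 in the p53 tumour. The mean log2 difference was 2.15 ± 0.08 (SD between the LSD1 tumours, n = 2). Fcnb, the gene of ficolin B, a lectin of the complement system that myeloid precursors make, stayed nearer to the p53 tumour. It had 0.104 and 0.124, against 0.0746 in the p53 tumour, differences of 0.48 and 0.73 log2 units that stayed under 2-fold.

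**Figure D2:**
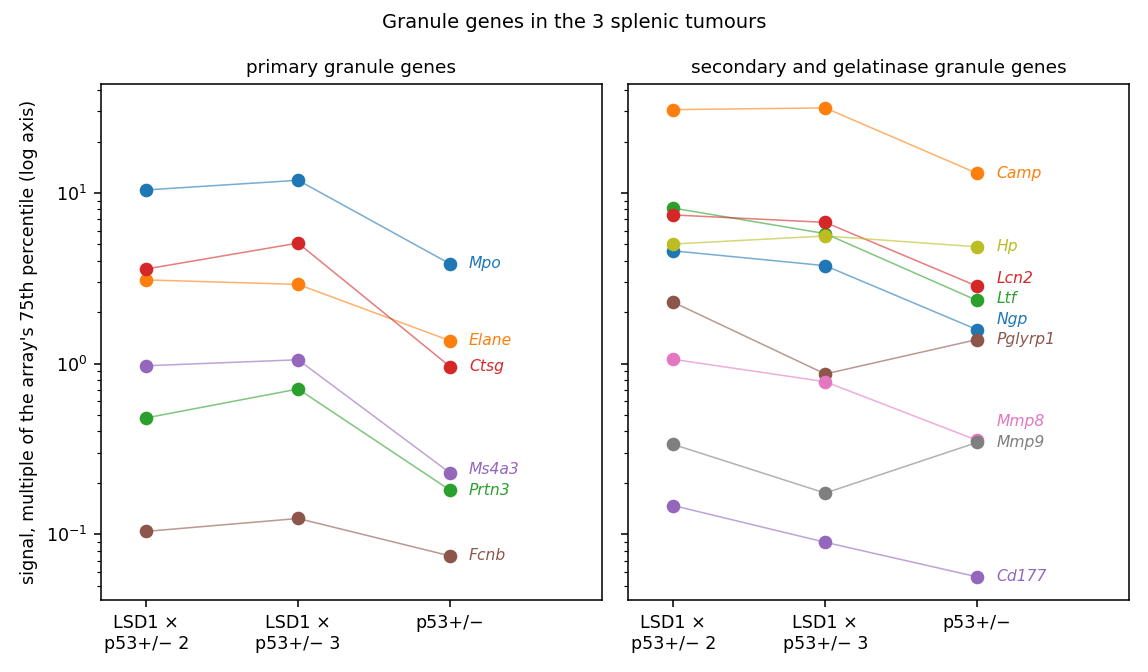
Signal in multiples of the array's 75th percentile (log axis) of primary granule genes (left) and secondary and gelatinase granule genes (right) in each LSD1 × p53+/− tumour and in the p53+/− tumour, 1 point per array with lines joining a gene. Heights of different genes depend on their probes and are not to be compared. Mpo, Elane, Prtn3, Ctsg, Ms4a3, Ngp, Camp, Ltf, Lcn2 and Mmp8 stand at least 2-fold above the p53+/− tumour in both.

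The C/EBP factor genes did not share a direction, with 2 of 4 higher in both LSD1 tumours and 0 lower in both. Cebpe, which encodes the factor required for secondary granule genes, had signals of 1.80 (LSD1 tumour 2) and 1.58 (LSD1 tumour 3), against 0.893 in the p53 tumour, 2.02-fold and 1.77-fold higher. Cebpd, expressed in later myeloid cells and in inflammation, had 5.61 and 5.31, against 4.11. For both genes the LSD1 tumours lay closer to each other than to the p53 tumour under the main scaling. For Cebpd this did not hold under 2 other scalings, where LSD1 tumour 3 lay nearer to the p53 tumour. Its log2 differences in LSD1 tumours 2 and 3 were 0.36 and 0.10 with quantile normalization. They were 0.23 and 0.005 with the authors' scaling. Cebpa, encoding the factor that commits progenitors to the granulocyte and monocyte lineages, separated the LSD1 tumours instead. Its signal was 0.436 in LSD1 tumour 2 and 0.169 in LSD1 tumour 3, against 0.417 in the p53 tumour, so that only LSD1 tumour 3 was lower, by 2.46-fold. With the authors' scaling LSD1 tumour 2 was also below the p53 tumour for Cebpa, by a log2 difference of -0.15. Cebpb, the factor of emergency granulopoiesis, had 2.32 and 3.82, against 2.86, so the LSD1 tumours lay on either side of the p53 tumour.

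Secondary and gelatinase granule genes were mostly higher, with 7 of 9 higher in both LSD1 tumours (6 of 8 without Cd177) and 1 lower in both. Their median log2 differences were 1.39 (tumour 2) and 1.14 (tumour 3), and 1.31 and 1.19 without Cd177, which entered only through the LSD1 arrays. The 5 genes at least 2-fold higher in both encode proteins made at the myelocyte stage.

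Ltf encodes lactoferrin, the iron-binding protein that defines secondary granules. Its signals were 8.15 in LSD1 tumour 2 and 5.77 in LSD1 tumour 3, against 2.34 in the p53 tumour, 3.48-fold and 2.47-fold higher. Camp, the gene of the antimicrobial peptide cathelicidin, had 30.8 and 31.5, against 13.01, 2.36-fold and 2.42-fold higher. The LSD1 tumours differed by 0.03 log2 units for Camp, the smallest gap among the 35 genes.

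Ngp, encoding the neutrophilic granule protein, a relative of the cystatins found in mice, had 4.57 and 3.74 in LSD1 tumours 2 and 3, against 1.58 in the p53 tumour. Lcn2, the gene of lipocalin 2, which binds bacterial siderophores, had 7.43 and 6.72, against 2.84. These are 2.90-fold and 2.37-fold higher for Ngp and 2.62-fold and 2.37-fold higher for Lcn2. The other Lcn2 probe gave larger log2 differences of 2.08 and 1.33. Mmp8, the neutrophil collagenase, had 1.06 and 0.782, against 0.355, so for each of these genes the lower LSD1 tumour was still at least 2.21-fold above the p53 tumour. The TTGCNNAA letters stand in the windows of Ngp, Ltf, Lcn2 and Mmp8.

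The other genes of this group separated from those 5. Cd177, the gene of a neutrophil surface protein that human neutrophils also store in secondary granules, had 0.147 in LSD1 tumour 2 and 0.0896 in LSD1 tumour 3, while the p53 array was not well above background at 0.0562. The bound was at least 2.62-fold and at least 1.59-fold higher, but with normexp the log2 difference in LSD1 tumour 2 was 0.54 in place of 1.39. Mmp9, encoding the gelatinase that names the last granule type, had 0.336 and 0.174, against 0.345 in the p53 tumour. LSD1 tumour 2 thus matched the p53 tumour within 0.04 log2 units and LSD1 tumour 3 was lower by 1.98-fold, with log2 differences of -0.34 and -1.13 by the second probe. Pglyrp1, a peptidoglycan-binding antibacterial protein gene, lay on either side, at 2.29 in LSD1 tumour 2 and 0.868 in LSD1 tumour 3, against 1.38 in the p53 tumour. Hp, the gene of haptoglobin, which captures free haemoglobin and is stored in granules, hardly differed, at 5.02 and 5.59, against 4.83. Its small positive differences turned negative in LSD1 tumour 2 with normexp, and in both with quantile normalization and the authors' scaling.

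Mature neutrophil genes had a median log2 difference of -0.09 in each LSD1 tumour. Of the 16 measured, 4 were higher in both LSD1 tumours (S100a8, S100a9, Fpr2 and Anxa1), 6 were lower in both (Csf3r, Cybb, Cyba, Ncf1, Mcemp1 and Il1b), and 0 were 2-fold from the p53 tumour in both in either direction. The count of genes lower in both was 8 with quantile normalization and 10 with the authors' scaling, while 5 were lower in both when the probes of a gene were averaged.

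The calprotectin subunits went with the granule genes. S100a8 had signals of 72.4 (LSD1 tumour 2) and 65.6 (LSD1 tumour 3), against 33.7 in the p53 tumour, 2.15-fold and 1.95-fold higher. S100a9, its partner in the calcium-binding heterodimer that fills the neutrophil cytosol, had 167 and 151, against 90.1, 1.85-fold and 1.67-fold higher. Both genes are transcribed from the myelocyte stage onwards, and for both the LSD1 tumours were within 0.14 log2 units of each other. Under other ways of scaling the log2 differences of LSD1 tumour 3 fell as low as 0.48 for S100a8 and 0.38 for S100a9.

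Receptor genes showed no shared pattern. Csf3r, the receptor for the growth factor G-CSF, was close to level, at 106 in LSD1 tumour 2 and 93.6 in LSD1 tumour 3, against 111 in the p53 tumour. Itgam, the CD11b chain of the adhesion receptor Mac-1, had 12.7 and 7.86, against 11.1, and so had no common direction, although both LSD1 tumours lay below the p53 tumour with quantile normalization and the authors' scaling. Ltb4r1, a receptor for leukotriene B4, had 0.596 and 0.530, against 0.586. The formyl peptide receptors, which guide neutrophils towards bacterial peptides, were in contrast high in LSD1 tumour 3. Fpr1 had 0.793 in LSD1 tumour 2 and 4.40 in LSD1 tumour 3, against 1.11 in the p53 tumour. Fpr2 had 2.38 and 6.64, against 2.02, and its second probe placed LSD1 tumour 3 higher by 1.97 log2 units. Fpr1 was thus 3.96-fold higher and Fpr2 3.28-fold higher in LSD1 tumour 3, and neither was 2-fold from the p53 tumour in LSD1 tumour 2. The Fpr genes form a family of close relatives, and signal shared between their probes was not tested.

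The 3 oxidase subunit genes were lower in both LSD1 tumours. Ncf1, encoding a cytosolic organiser of the phagocyte NADPH oxidase, had 1.18 in LSD1 tumour 2 and 2.43 in LSD1 tumour 3, against 3.63 in the p53 tumour, 3.09-fold and 1.49-fold lower. Cybb, the catalytic membrane subunit, had 0.631 and 1.09, against 1.56, 2.48-fold and 1.43-fold lower. Second probes gave log2 differences of -2.01 and -0.73 for Ncf1 and -1.65 and -0.53 for Cybb. Cyba, the smaller membrane subunit, had 43.0 and 64.9, against 66.7, so that LSD1 tumour 3 stood at the level of the p53 tumour. A second Cyba probe placed LSD1 tumour 3 higher, by 0.22 log2 units. These subunits are also made by macrophages and B cells, and B cell genes were not among the lists compared here.

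Padi4 and Il1b differed between the LSD1 tumours by more than any granule gene of the set did. Outside the set, the lysozyme genes Lyz1 and Lyz2, given below, were further apart. Padi4, the enzyme that citrullinates histones when neutrophils cast extracellular traps, had 0.338 in LSD1 tumour 2 and 2.37 in LSD1 tumour 3, against 0.365 in the p53 tumour. LSD1 tumour 3 alone was thus higher, by 6.50-fold, and its other probe was above background on that array only. Il1b, the gene of the cytokine interleukin-1 beta, had 0.584 and 1.89, against 2.78, 4.75-fold and 1.47-fold lower. The second Il1b probe gave log2 differences of -2.20 and -0.19, so that LSD1 tumour 3 lay nearer to the p53 tumour. Alox5, the first enzyme of leukotriene synthesis, had 0.317 and 0.576, against 0.370, on either side of the p53 tumour. Retnlg, a resistin-like protein gene of late neutrophils, had 3.59 and 1.93, against 3.57, a difference in LSD1 tumour 3 only, where it was 1.86-fold lower. Mcemp1, a membrane protein gene of mast cells and neutrophils, had 1.57 and 1.33, against 1.95, and was lower by 1.24-fold and 1.46-fold. Anxa1, an annexin that limits inflammation, had 4.09 and 4.42, against 3.61, a small excess that turned negative in both with the authors' scaling.

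**Figure D3:**
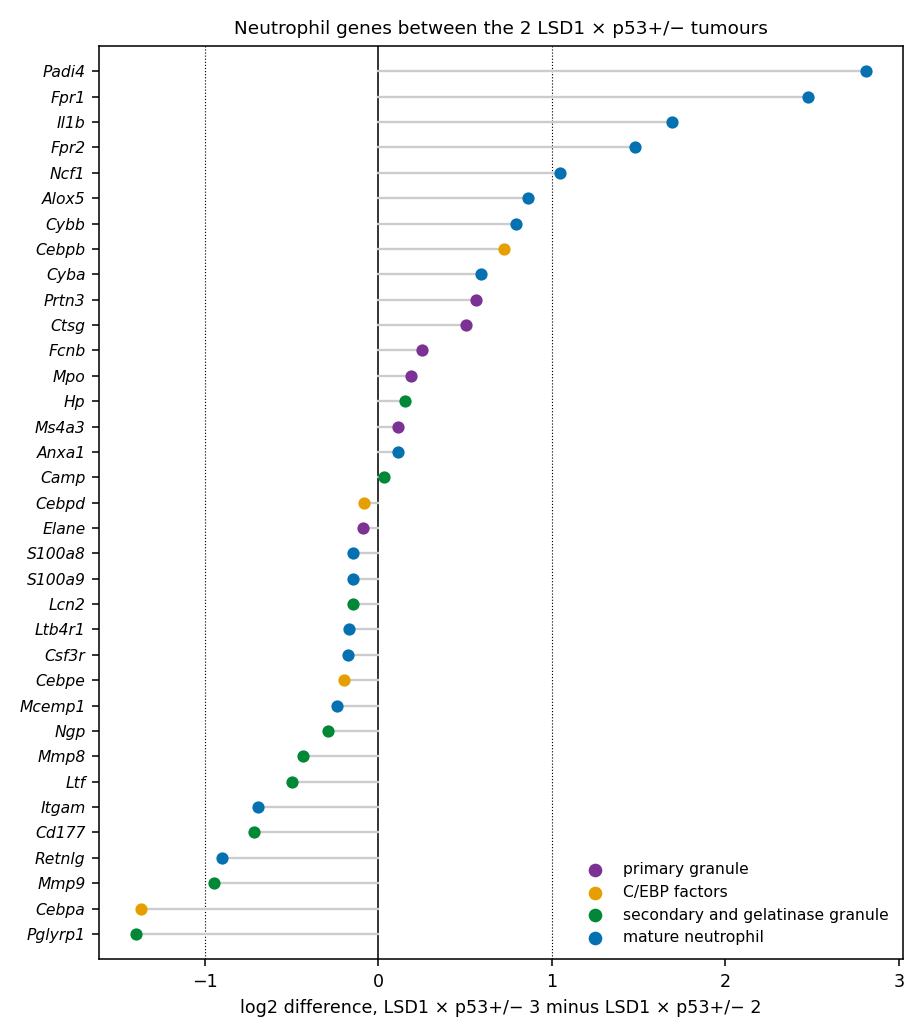
Log2 difference of LSD1 × p53+/− tumour 3 minus LSD1 × p53+/− tumour 2 (x axis) for the 35 measured genes, 1 point per gene in order of size and coloured by group, with dotted lines at 2-fold. Mature neutrophil genes take the upper end, from Padi4 at 2.81 downwards, and Pglyrp1 and Cebpa lie at the lower end at -1.40 and -1.37.

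The LSD1 tumours were at least 2-fold apart in 7 of the 35 genes, against 25.1% of all genes. LSD1 tumour 3 exceeded LSD1 tumour 2 in 5, all of mature neutrophils, against 14.0% of all genes, namely Padi4 (7.01-fold), Fpr1 (5.55-fold), Il1b (3.23-fold), Fpr2 (2.79-fold) and Ncf1 (2.07-fold). LSD1 tumour 2 exceeded LSD1 tumour 3 in Pglyrp1 (2.63-fold) and Cebpa (2.58-fold), against 11.1% of all genes. None of the 6 primary granule genes and 1 of 9 secondary and gelatinase granule genes was among the 7. Secondary granule genes lay lower in LSD1 tumour 3 than in LSD1 tumour 2 in 7 of 9 cases, Cd177 among them. Primary granule genes lay higher in 5 of 6, mostly by small amounts. Of all 15240 genes, 6739 were lower and 8501 higher in LSD1 tumour 3 than in LSD1 tumour 2. Each tumour is 1 array, so these gaps have no replicate check.

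Taken 1 tumour at a time, 13 of the 35 genes were at least 2-fold higher in LSD1 tumour 2, against 11.7% of all genes, and 13 in LSD1 tumour 3, against 15.2%. Lower by at least 2-fold were 3 in LSD1 tumour 2 (Cybb, Ncf1 and Il1b), against 11.5%, and 1 in LSD1 tumour 3 (Cebpa), against 11.5%. LSD1 tumour 3 shares its slide with the p53 tumour, so its count is also the count within that slide. The comparisons share the p53 array.

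Other genes of neutrophil development were read from lists of related genes. The counts here and below can be set beside all 12812 genes above background on all arrays. Of those, 5206 lay above and 3387 below the p53 tumour in both LSD1 tumours. Of 10 genes of transcription factors and growth factor receptors above background on all arrays, 2 (Gfi1 and Myb) lay above and 5 below the p53 tumour in both LSD1 tumours. Gfi1, which works with LSD1 and is needed for neutrophil differentiation, had signals of 4.56 (LSD1 tumour 2) and 2.99 (LSD1 tumour 3), against 1.11 in the p53 tumour, 4.11-fold and 2.70-fold higher. Irf8, which favours monocytes over neutrophils, had 9.28 and 16.7, against 29.5, and was lower in both. Myb, a factor of proliferating progenitors, had 3.42 and 6.38, against 2.53, and Kit, the stem cell factor receptor, 0.515 and 0.730, against 1.28. Spi1, which encodes PU.1 and was picked after its values were seen, had 0.0922 and 0.270, against 0.248, so that only LSD1 tumour 2 was lower.

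Of 8 further secondary and gelatinase granule genes above background on all arrays, 5 lay above the p53 tumour in both LSD1 tumours and 0 below it in both, with median log2 differences of 0.54 and 0.80. Chil3, a chitinase-like protein gene of myeloid precursors and macrophages, had 26.3 in LSD1 tumour 2 and 11.6 in LSD1 tumour 3, against 3.9995 in the p53 tumour. Itgb2l, an integrin beta chain gene of mouse neutrophils, had 0.334 and 0.270, against 0.110. Both were at least 2-fold higher in both tumours. Lrg1, a leucine-rich glycoprotein gene, differed by 0.47 and 1.79 log2 units. Orm1, an acute phase gene not well above background in the p53 tumour, was at least 2.12-fold and at least 1.60-fold higher.

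Of 7 further primary granule and lysosomal genes measured, 2 lay above and 2 below the p53 tumour in both LSD1 tumours. Slpi, an inhibitor of neutrophil elastase, had 9.07 in LSD1 tumour 2 and 7.20 in LSD1 tumour 3, against 30.3 in the p53 tumour, and Serpinb1a, another inhibitor of these proteases, had 4.50 and 9.44, against 15.8. Both inhibitor genes were thus lower in both LSD1 tumours, and a link to the protease genes was not tested. Ctsc, the enzyme that activates the proteases, had 4.93 and 11.1, against 4.54, and Cd63, a membrane protein of the granule, 25.9 and 24.2, against 15.8. Lysozyme genes, picked after their values were seen, went opposite ways in the LSD1 tumours. Lyz2 had 22.1 in LSD1 tumour 2 and 2.01 in LSD1 tumour 3, against 10.4 in the p53 tumour, and Lyz1, a close copy whose probe may share signal with that of Lyz2, had 78.2 and 8.47, against 38.7.

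Late surface and chemotaxis genes had no shared direction. Of the 21 above background on all arrays, 5 were higher than the p53 tumour in both LSD1 tumours and 8 were lower in both. Of the 8, 3 were at least 2-fold lower in both, against 416 of all 12812 genes above background on all arrays. Among the 3 were Cxcr2, the chemokine receptor that brings mature neutrophils into blood (0.343 and 0.131, against 0.781), and Clec4d, a lectin receptor of myeloid cells (0.329 and 0.501, against 1.05). Fcgr4, an IgG receptor of neutrophils and macrophages, had 4.26 in LSD1 tumour 2 and 30.3 in LSD1 tumour 3, against 2.36 in the p53 tumour. Of 7 partners of the oxidase and of lipid mediators, 0 were higher and 3 lower in both. Alox5ap, which hands substrate to Alox5, had 1.73 and 3.17, against 5.34. Ncf4 differed by -1.35 and -0.04 log2 units, so that LSD1 tumour 3 again lay near the p53 tumour, and Lta4h, which makes leukotriene B4, by 0.67 and -0.06.

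**Figure D4:**
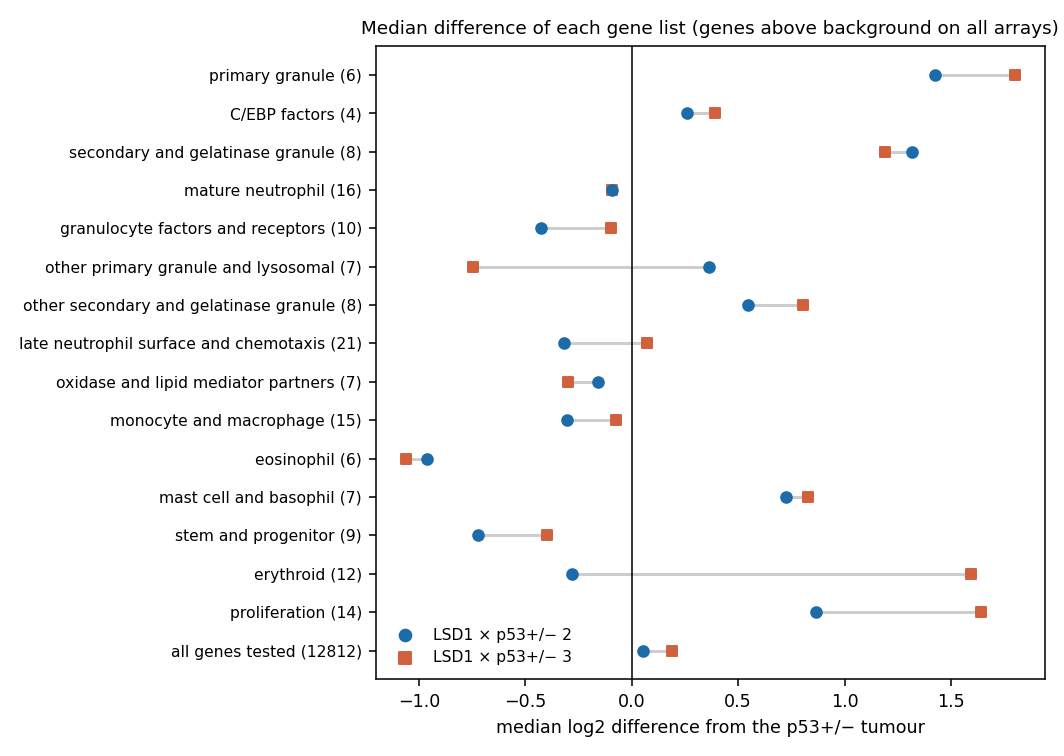
Median log2 difference from the p53+/− tumour (x axis) of each gene list in LSD1 × p53+/− tumour 2 (circles) and tumour 3 (squares), over the genes above background on all arrays, whose number is in brackets. Primary granule, both secondary granule lists, C/EBP, mast cell and basophil, and proliferation genes lie right of 0 in both tumours. All genes tested do so too, at 0.05 and 0.19. Mature neutrophil, granulocyte factor and receptor, oxidase partner, monocyte and macrophage, eosinophil and stem cell genes lie left of 0 in both.

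Markers of other cells that share genes with neutrophils were read beside these values, and their part in the results was not tested. Monocyte and macrophage markers, which include cells that make Itgam, Cybb, Ncf1, Il1b and the formyl peptide receptors, were all 15 above background on every array. Their summed signal was 229 in LSD1 tumour 2 and 284 in LSD1 tumour 3, against 288 in the p53 tumour, with 3 higher and 7 lower in both. Summed signals, here and below, weight the brightest probes most. The receptor Csf1r was near level, at 55.8 and 64.5, against 67.9. Cx3cr1, of patrolling monocytes and some macrophages, had 2.64 and 0.514, against 3.34, and Adgre1, a surface receptor gene of tissue macrophages, had 3.11 and 8.91, against 9.46. Ccr2 differed by 1.76 and 0.26 log2 units and Cd14 by -1.30 and -0.66.

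Of 6 eosinophil genes above background on all arrays, 0 lay above and 3 below the p53 tumour in both LSD1 tumours. The other 3, picked after their values were seen, had no common direction, since Ear1 and Ear2, ribonuclease genes, were higher in LSD1 tumour 2 by 1.53 and 1.14 log2 units and Il5ra, the interleukin-5 receptor gene, in LSD1 tumour 3 by 2.76. Prg2, the major basic protein of eosinophil granules, had 0.496 in LSD1 tumour 2 and 0.415 in LSD1 tumour 3, against 1.63 in the p53 tumour. Ccr3, the eotaxin receptor, had 0.673 and 0.713, against 2.00. Prg3 had 0.574 in LSD1 tumour 2 and was not well above background in LSD1 tumour 3, at least 26.5-fold below its signal of 1.81 in the p53 tumour. Epx, the eosinophil peroxidase gene, was above background in the p53 tumour only. Its level there was too close to background for a fold.

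Mast cell and basophil genes were higher in both LSD1 tumours in 5 of the 7 above background on all arrays and lower in both in 0. Their summed signal was 4.73 (LSD1 tumour 2) and 3.66 (LSD1 tumour 3), against 1.70 in the p53 tumour. Hdc alone gave 3.36, 1.39 and 0.783 of these sums. The basophil protease genes Mcpt8 and Prss34 had 0.306 and 0.737, against 0.137, and 0.284 and 0.582, against 0.109. Cpa3, a carboxypeptidase gene of mast cells and basophils that was not well above background in the p53 tumour, was at least 7.29-fold and at least 3.35-fold higher, and Hdc, which makes histamine and is also active in myeloid progenitors, had 3.36 and 1.39, against 0.783. Stem and progenitor genes above background on all arrays were lower in both in 5 of 9 cases and higher in both in 2. Flt3, a receptor of lymphoid and dendritic progenitors, had 0.334 and 0.472, against 2.13, and Sox4 had 0.223 and 0.129, against 0.368. Hlf had 0.100 in LSD1 tumour 2 and was not well above background in LSD1 tumour 3, against 0.0766 in the p53 tumour.

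Proliferation genes were higher in both LSD1 tumours in 13 of 14 cases, with a summed signal of 266 (LSD1 tumour 2) and 521 (LSD1 tumour 3), against 177 in the p53 tumour. Cdk1, the kinase of mitotic entry, had 4.44 and 7.16, against 1.68, Bub1 2.10 and 2.67, against 0.815, Aurkb 2.38 and 4.002, against 1.08, and Mcm2 10.5 and 9.66, against 3.71. Most erythroid genes were higher in LSD1 tumour 3 alone. All 12 exceeded the p53 tumour there, and 3 did in LSD1 tumour 2, Rhag and Tfrc among them. Klf1, their transcription factor, had 2.24 in LSD1 tumour 2 and 10.3 in LSD1 tumour 3, against 2.51 in the p53 tumour, Rhag 1.62 and 5.05, against 1.23, and the transferrin receptor gene Tfrc 11.2 and 19.3, against 6.15.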

How the data were processed

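The deposited intensity used was Feature Extraction's processed signal (Agilent Feature Extraction 11.5.1.1, per the submitters' processing notes), which is corrected for background and spatial trend in each array but not scaled across arrays, per the file headers. The authors' value table held these intensities times 1 factor per array (0.779, 0.902 and 1.06 for LSD1 tumours 2 and 3 and the p53 tumour), whose basis is not given in the sources used here.

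Control and outlier spots were left out, each array was scaled to its 75th percentile, log2 was taken and spots of 1 probe were averaged. RefSeq transcripts of GRCm38.p6 named 32994 of 56605 probes. A gene was represented by its brightest probe and compared where at least 1 array was well above background. Of 10 genes in the set with several probes, 8 had another probe above background on all arrays, and 7 of these had the same directions. A fold given as "at least" sets the bright signal against the higher of the dim array's lowest signal above background and the probe's own.

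limma 3.58.1 in R 4.3.3 (lmFit, eBayes, Benjamini-Hochberg adjustment, threshold 0.05) was fitted over all genes and checked on simulated data. The lone p53 array is assumed to vary like the others, and p-values measure only the spread between these samples. Counts by size used 2-fold, with the brighter side above background. Named genes were the 36 of the set, Kdm1a, Trp53 and, per other list, the 4 with the largest mean difference among genes whose brighter side was well above background (both LSD1 arrays for higher, the p53 array for lower), besides Csf1r, Spi1, Lyz1, Lyz2, Ear1, Ear2 and Il5ra, picked after their values were seen. Some genes this rule names are not reported here. The genes and lists were chosen with earlier results of these data known. Alternatives were normexp (offset 50), quantile normalization, the authors' table, stricter and no filters on dim probes, the mean of a gene's probes, each LSD1 tumour left out, and slide as a block.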

Additional observations from a re-analysis of the deposited data

How the results depend on the processing

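No gene of the set passed limma's adjusted threshold under the main scaling or the 6 alternatives that allow the test. Leaving out an LSD1 tumour, or taking slide as a block, leaves no residual degree of freedom, so those settings gave sizes only. The count at least 2-fold higher in both LSD1 tumours was 10, 9 with normexp, 7 with quantile normalization, 4 with the authors' table, and 13 with either LSD1 tumour left out or slide as a block. The count at least 2-fold lower was 0, between 1 and 3 with 1 LSD1 tumour left out, and 1 with slide as a block. A gene has to pass in 1 tumour only in those settings. Genes 2-fold apart between the LSD1 tumours numbered between 5 and 8. Over all genes the counts at least 2-fold higher and lower in both, 531 and 820, were 323 and 394 with normexp, 219 and 1266 with the authors' table, and 447 and 416 for genes above background on all arrays. No member at least 2-fold from the p53 tumour changed sign there under any rescaling. No paired analysis was possible because the genotypes share no replicate number.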
